A study of Homo sapiens with 17 samples.

Results

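The 9 nonsense-mediated decay (NMD) factors UPF1, UPF2, UPF3A, UPF3B, SMG1, SMG5, SMG6, SMG8 and SMG9 were followed through acRIP-seq of HEK293T cells, a human embryonic kidney line. The members were the rows of the count table that carry these symbols, 9 of 23368 genes, a rule that uses no measured value. NMD degrades mRNAs whose translation stops too early. The helicase UPF1 is recruited at such a stop, joins UPF2 and UPF3B, which contact exon junction complexes left downstream, and is phosphorylated by the kinase SMG1. SMG5 and SMG6 then bind phosphorylated UPF1 and start decay, and several NMD factor mRNAs are themselves NMD targets, in a known feedback loop.

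In acRIP-seq, poly(A) RNA that carries N4-acetylcytidine (ac4C), a base modification written by NAT10, is pulled down with an anti-ac4C antibody on protein A beads (IP) and sequenced next to unselected RNA (input) and to a pull-down with a rabbit IgG isotype control (IgG). The 6 groups were WT input, WT IP and WT IgG, from HEK293T cells labelled WT, and siTDP43 input, siTDP43 IP and siTDP43 IgG, from HEK293T cells transfected with siRNA against TDP43, an RNA-binding protein encoded by TARDBP. Each group had 3 libraries except WT IgG, which had 2, for 17 in all, and total counts ran from 3013989 to 3436811 in siTDP43 IgG up to 27718784 to 36583436 in WT input. No control siRNA is named for the WT cells, so knockdown, transfection and batch of cells cannot be told apart, and the study speaks of independent samples in general without saying whether the libraries of a group came from separate cultures, so p-values measure the spread between these libraries.

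TARDBP was 149.7 to 157 CPM (counts scaled to a common, TMM-adjusted library total) in WT input and 98.7 to 106 CPM in siTDP43 input, a fall of the siTDP43 group to 67.2% of WT (adjusted p = 6.55e-13). Of 10 HEK293T marker genes, 7 reached 1 CPM on average in WT input and 8 in siTDP43 input, while PTPRC of leukocytes and COL1A2 of fibroblasts were listed at 0 in both. The summed level of the HEK293T list was 1228 to 1261 CPM in WT input and 608 to 650 CPM in siTDP43 input, with group means of 788 and 262 CPM for VIM and of 193 and 39.1 CPM for KRT8. Within that list NEFL went the other way, with group means of 65.2 and 186 CPM, as did EYA1 with 3.55 and 8.15 CPM and INA with 0.199 and 2.06 CPM. CD24 had group means of 4.95 and 5.18 CPM. The shift in these markers moves with every input comparison given here, and its part in them was not tested.

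UPF3B was the member on which the pull-down results turn, and it lies on the minus strand at chrX:118967989-118986991 (hg19), with 11 exons and 2404 exonic bases. The study designed one primer pair for its coding sequence and another that starts in the 5′ untranslated part, shown here because they mark the segment of UPF3B it followed by qPCR. Each primer matched the gene exactly, at a single place and inside the first exon, at chrX:118986846-118986867 and chrX:118986759-118986780 for the first pair and at chrX:118986907-118986924 and chrX:118986775-118986799 for the second. The forward primer of the second pair lies upstream of the coding start and the other 3 lie in the coding sequence.
hUPF3B-F: cctaaggagaagcgagtaaccc
hUPF3B-R: ccttgttgcgatcctgcttatc
hUPF3B-5U-F: tccggccaagccgcttca
hUPF3B-5U-R: cttatcttcccccttggagctgtcc

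Exons of the members were searched, on the transcribed strand, for exact copies of UCCCAGCU, which the study's motif analysis gave for ac4C peaks, of UGUGCG, which the study took as a motif TDP43 is known to prefer, and of the UG repeat UGUGUG. UCCCAGCU was found in 2 of 9 members, SMG6 among them, and in 19.8% of 13775 genes with a mean of at least 10 counts. UGUGCG was found in 5 of 9 members (31.4% of genes) and UGUGUG in 6 of 9 (66.8% of genes). UPF2, UPF3B and SMG9 held none of the 3 sequences, and in WT the first pair had the highest IP values over IgG among the members and SMG9 the lowest. The sites shown are printed with the motif in capitals and up to 10 bases on each side, cut at exon ends. All of them are coding, in SMG6 at chr17:2139786-2139808 and chr17:2206979-2207004, UPF1 at chr19:18972874-18972899, SMG1 at chr16:18860639-18860664, SMG5 at chr1:156233186-156233204 and SMG8 at chr17:57287614-57287639.
SMG6, ac4C motif: aguacacaacUCCCAGCUgaaag
UPF1, TDP43 motif: uccuguccugUGUGCGggccaacgag
SMG1, TDP43 motif: cugaaguguaUGUGCGccaaaguauu
SMG5, TDP43 motif: caucaucgugUGUGCGcag
SMG6, TDP43 motif: ggcuggagcgUGUGCGgaucuccgcg
SMG8, TDP43 motif: gugaauacggUGUGCGaccgacaggu

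In UPF1 and SMG5 the UGUGCG site overlapped a UGUGUG site. Long exons hold a given word more often, and among genes within 10% of its exon length UGUGCG was found in 40.7% for UPF1 and 61.3% for SMG1, and UCCCAGCU in 32.7% for SMG6. A match is only a match of letters, and no binding or acetylation was read from it.

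The members differed in level on the scale of CPM per kilobase of exon, which divides by the exon length listed for each gene. Whether reads spread evenly over that length was not tested. In WT input UPF3B had the highest level at 23.6 CPM per kb, followed by SMG5 (11.6) and SMG9 (9.29). SMG1 and SMG6 had the lowest levels, at 1.86 and 1.58 CPM per kb, and no neighbouring members in this order overlapped in their libraries. In siTDP43 input SMG8 was highest at 22.0 CPM per kb, above UPF3B at 15.2, and SMG6 (0.570) and UPF1 (0.534) were lowest, with overlapping libraries.

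The input libraries showed whether NMD factor mRNAs differed in level between siTDP43 and WT cells. In siTDP43 input 7 of the 9 members were lower than in WT input, 1 was higher and 1, UPF2, did not pass (adjusted p under 0.05). Over all genes tested 40.6% were lower and 38.6% higher, so that a called gene was common in this comparison. UPF1 fell 5.59-fold and SMG8 rose 4.04-fold. The median of the members was -0.63 on the log2 scale, against -0.05 over all genes. In bulk RNA fewer cells that express a gene and less RNA per cell cannot be told apart, and all levels are relative to the library.

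UPF1 (chr19:18942744-18979039, plus strand), the RNA helicase at the centre of NMD, was measured at 17.1, 16.7 and 14.4 CPM in WT input and at 2.84, 2.46 and 3.26 CPM in siTDP43 input. The groups were far apart. UPF1 fell by 2.48 ± 0.14 (SE) on the log2 scale (n = 3 against 3 libraries, edgeR adjusted p = 1.59e-16), the largest fall among the members.

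UPF2 (chr10:11962021-12085169, minus strand), the adaptor between UPF1 and the UPF3 proteins, had 13.5, 14.2 and 13.1 CPM in WT input and 13.0, 11.2 and 12.7 CPM in siTDP43 input. Its log2 difference of -0.14 ± 0.11 (SE) did not pass (edgeR adjusted p = 0.231), though every siTDP43 library was below every WT library. With library totals alone as the scale the difference passed, at -0.23 (edgeR adjusted p = 0.0478).

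UPF3A (chr13:115047059-115071291, plus strand) and UPF3B are paralogs that bind UPF2, and UPF3B is the main link to exon junction complexes. UPF3A was at 14.2, 15.4 and 14.3 CPM in WT input and at 6.15, 6.34 and 6.42 CPM in siTDP43 input. UPF3B was at 60.2, 53.7 and 56.3 CPM in WT input and at 37.1, 34.8 and 37.5 CPM in siTDP43 input. Neither pair of groups overlapped. UPF3A fell by 1.21 ± 0.12 (SE) and UPF3B fell by 0.63 ± 0.06 (SE) on the log2 scale (edgeR adjusted p = 7.12e-11 and 1.56e-10). RefSeq lists UPF3A pseudogenes, and since only uniquely aligned reads were counted, reads shared with them are missing from UPF3A.

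The kinase complex moved in opposite directions. SMG1 (chr16:18816175-18937726, minus strand), the kinase that phosphorylates UPF1, had 27.3, 31.3 and 31.2 CPM in WT input and 18.5, 19.1 and 16.7 CPM in siTDP43 input, and fell by 0.72 ± 0.08 (SE) on the log2 scale (edgeR adjusted p = 4.10e-09). SMG8 (chr17:57287371-57292611, plus strand), which binds SMG1 and restrains it, had 18.8, 17.1 and 17.8 CPM in WT input and 71.5, 73.3 and 71.1 CPM in siTDP43 input. SMG8 was the single member that rose, by 2.01 ± 0.07 (SE) on the log2 scale (edgeR adjusted p = 1.08e-22).

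SMG9 (chr19:44235301-44259142, minus strand), the partner of SMG8, had 24.7, 21.1 and 19.8 CPM in WT input and 19.2, 14.5 and 18.1 CPM in siTDP43 input. It fell by 0.33 ± 0.10 (SE) on the log2 scale (edgeR adjusted p = 0.00411). This call was lost without WT input replicate 1 (-0.24, edgeR adjusted p = 0.0617) and without siTDP43 input replicate 2 (-0.22, edgeR adjusted p = 0.0529). SMG1 shares sequence with 4 pseudogene rows of the table, which held 1264 counts over the 17 libraries against 10590 for SMG1, so SMG1 counts leave out reads that fit more than one copy.

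The decay effectors were lower as well. SMG5 (chr1:156219015-156252620, minus strand), which bridges phosphorylated UPF1 to deadenylation and decapping, had 53.3, 55.4 and 50.7 CPM in WT input and 42.7, 35.5 and 33.3 CPM in siTDP43 input. SMG6 (chr17:1963133-2207069, minus strand), the endonuclease that cuts NMD targets, had 10.2, 9.67 and 10.8 CPM in WT input and 2.71, 4.40 and 3.97 CPM in siTDP43 input. Neither gene had overlapping groups, and SMG5 fell by 0.51 ± 0.07 (SE) while SMG6 fell by 1.47 ± 0.16 (SE) on the log2 scale (edgeR adjusted p = 2.30e-07 and 9.18e-10).

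**Figure D1:**
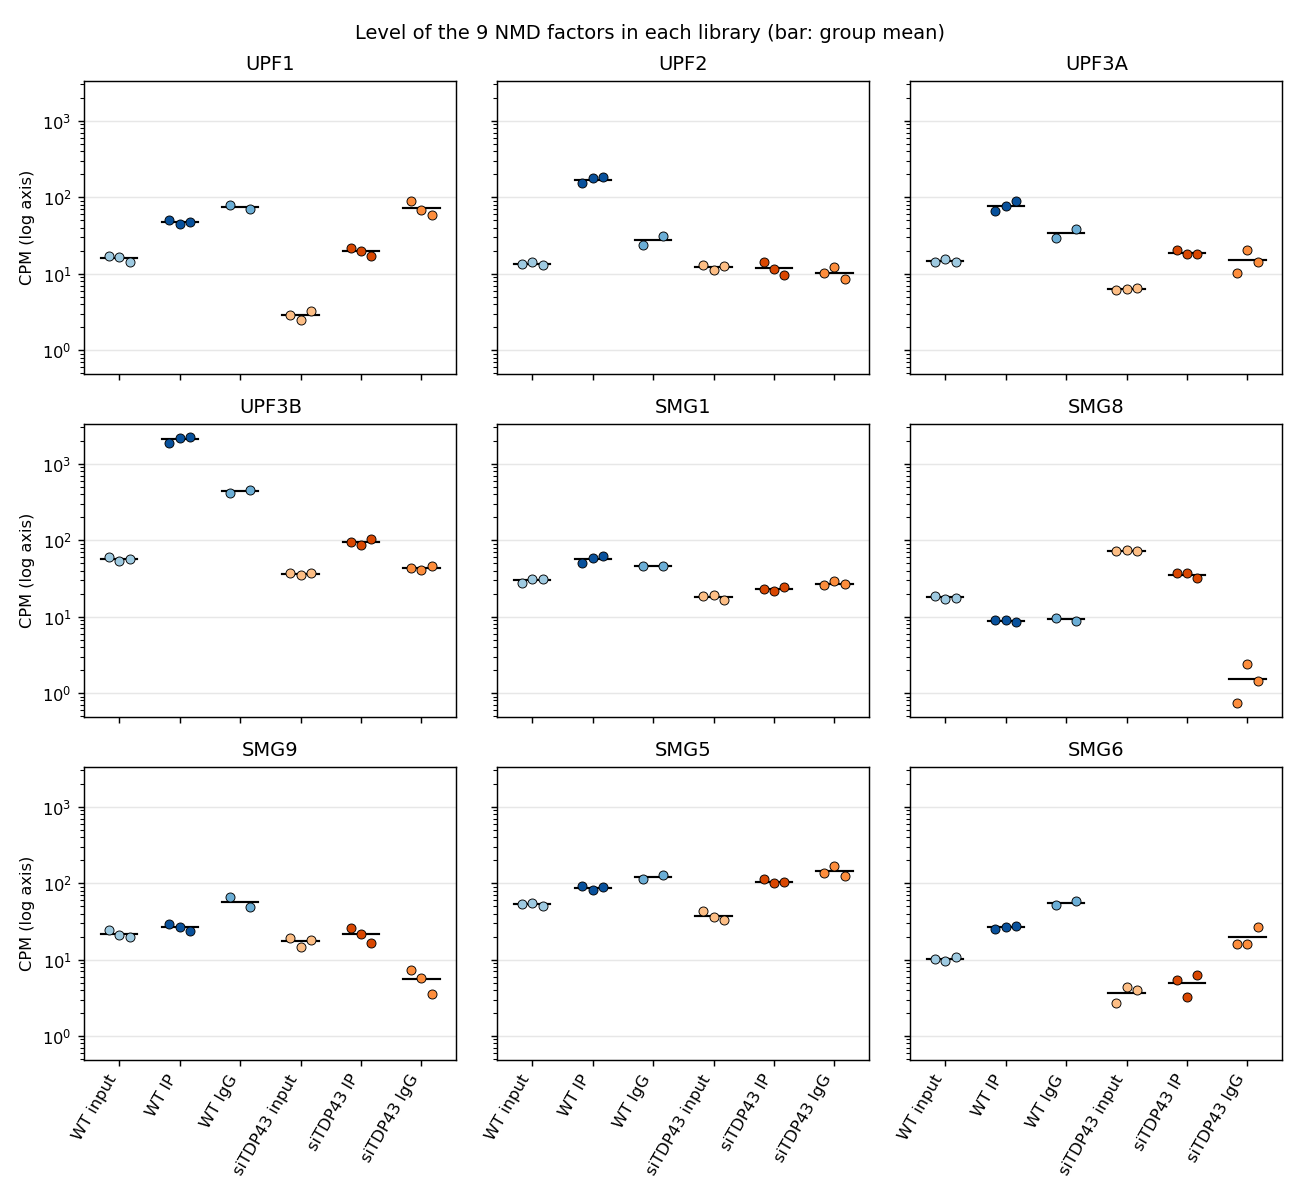
Level of each NMD factor in CPM (log axis) in every library, with points for libraries and bars for the means of the 6 groups. UPF3B stands at 1894 to 2218 CPM in WT IP and at 86.2 to 102 CPM in siTDP43 IP, and SMG8 is the member with its highest group in siTDP43 input.

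Most other genes of the pathway were higher in siTDP43 input, a comparison in which 38.6% of all genes tested were higher and 40.6% lower. Of 6 exon junction complex genes, 4 were higher and 2 lower in siTDP43 input, with a median of 0.61 against -0.05 over all genes. EIF4A3, the helicase of the complex, rose by 0.91 and RNPS1, a peripheral splicing factor of it, by 0.73, while MAGOH fell by 0.22 and its paralog MAGOHB fell by 0.16 (log2). Of 15 other NMD and translation termination factors, 10 were higher and 3 lower, with a median of 0.63. NCBP1, the large cap-binding subunit, rose by 1.004 and the termination factor ETF1 by 0.98, while the poly(A)-binding protein gene PABPC1 fell by 1.10 and GSPT1, which codes for eRF3a, fell by 1.06.

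Of 14 mRNA decay enzymes and cofactors, 8 were higher and 3 lower, against 38.6% and 40.6% of all genes, with a median of 0.26. The deadenylase genes PAN3 and CNOT7 rose by 1.48 and 1.40, and the decapping enzyme DCP2 and the exonuclease XRN1 fell by 0.73 and by 0.70.

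Transcripts known to rise when NMD is blocked were mostly lower in siTDP43 input. Of 15 listed, 14 were in the table, of which 11 were lower and 3 higher, against 40.6% and 38.6% of all genes. Their median was -1.89, against -0.05 over all genes. ATF3, a stress transcription factor, fell by 3.85 and the small nucleolar RNA host gene SNHG1 fell by 3.72 on the log2 scale, while TBL2 rose by 0.61 and NAT9 by 0.52. Many genes of this list, ATF3, ATF4 and DDIT3 among them, are also genes of the integrated stress response, so the list is not a measure of NMD alone.

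**Figure D2:**
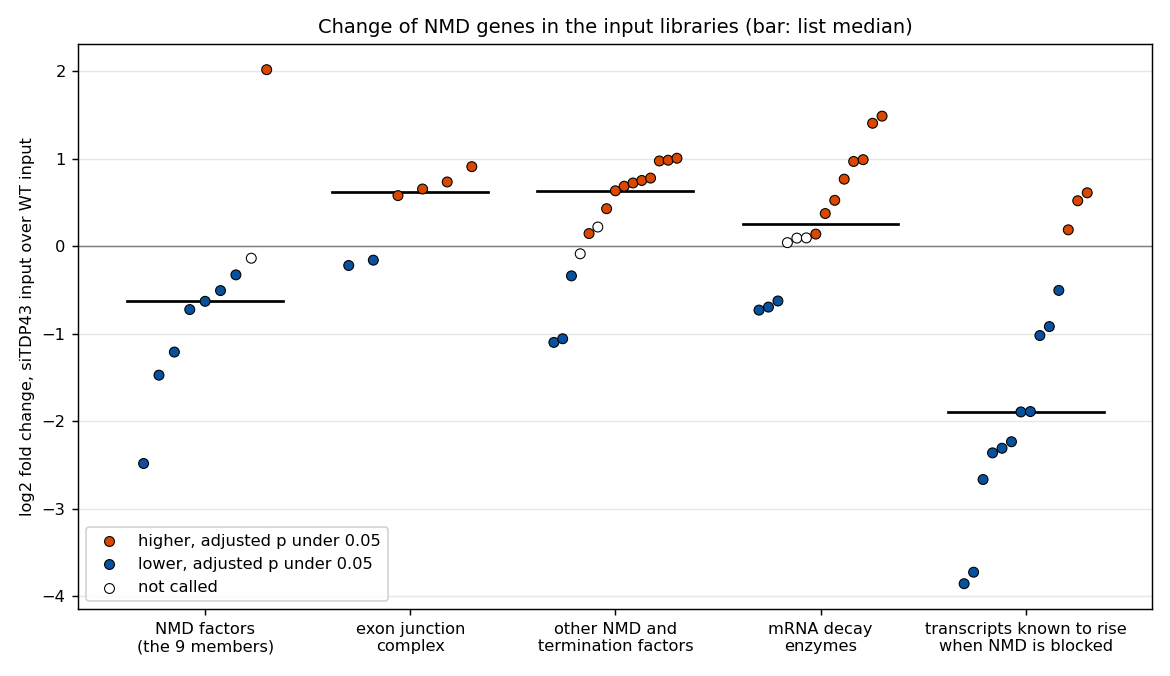
Log2 fold change of siTDP43 input over WT input for each gene of 5 lists, with a bar at the list's median and filled points for genes with an adjusted p under 0.05. The members centre on -0.63 with SMG8 at 2.01, the exon junction complex and the other NMD factors centre on 0.61 and 0.63, and the transcripts known to rise when NMD is blocked centre on -1.89.

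The WT pull-down answered which NMD factor mRNAs were recovered by the anti-ac4C antibody beyond input and beyond IgG. In WT cells UPF2, UPF3A and UPF3B passed over both controls (adjusted p under 0.05 and a fold above 2, called ac4C(+)), which 15.6% of all genes tested did. UPF3B rose 37.1-fold over input and 4.71-fold over IgG, and UPF2 rose 12.6-fold over input and 6.11-fold over IgG. Over input alone 5 members were higher and 1 lower, against 30.2% and 27.3% of all genes, and over IgG 3 were higher and 2 lower, against 35.2% and 17.8%. These calls share the WT IP libraries and are not independent of each other.

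UPF3B was at 1894, 2155 and 2218 CPM in WT IP and at 416 and 459 CPM in WT IgG. Every IP library was above every IgG library, and every IgG library was above the highest WT input library. Its log2 enrichment was 5.21 ± 0.07 (SE) over input and 2.23 ± 0.07 (SE) over IgG (edgeR adjusted p = 2.74e-26 and 2.20e-18). IgG itself recovered UPF3B 7.87-fold over input. By CPM per kb UPF3B ranked 82 among the 15834 genes with a count in WT IP and 2832 among the 17184 in WT input.

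UPF2 was at 152, 177 and 182 CPM in WT IP and at 23.8 and 31.3 CPM in WT IgG. The groups were separate, with log2 enrichment of 3.65 ± 0.09 (SE) over input and 2.61 ± 0.11 (SE) over IgG (edgeR adjusted p = 2.05e-21 and 2.63e-16). UPF2 was the member with the highest enrichment over IgG, and its IgG level was 2.06-fold above input, a call that was lost without WT IgG replicate 2 (log2 0.82).

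UPF3A was at 65.8, 77.8 and 88.7 CPM in WT IP and at 29.3 and 38.8 CPM in WT IgG. Its log2 enrichment was 2.41 ± 0.10 (SE) over input and 1.17 ± 0.12 (SE) over IgG (edgeR adjusted p = 2.34e-16 and 8.09e-09). Without WT IgG replicate 1 the log2 value over IgG was 0.98, a fold under 2, so that UPF3A was then not ac4C(+). At a stricter fold over IgG above 5, UPF2 alone among the members was called in WT. The study set a limit of 5 on a ratio of FPKM (counts scaled by length and depth) with 1 added, a measure unlike the fold here. It listed UPF3B among its highly acetylated transcripts, the class above that limit. UPF3B, at 4.71-fold, was close to that limit and lay above it with library totals alone as the scale (5.15-fold).

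UPF1 was called over input and not over IgG. It was at 51.0, 45.2 and 47.3 CPM in WT IP, above WT input by 1.58 ± 0.09 (SE) on the log2 scale (edgeR adjusted p = 2.78e-14). In WT IgG it was at 79.4 and 69.9 CPM, higher than in any IP library, and IP over IgG was -0.66 ± 0.10 (SE, edgeR adjusted p = 1.06e-06), short of a fold of 2. SMG6 followed the same pattern, with 25.1, 26.5 and 27.4 CPM in WT IP against 51.6 and 59.2 CPM in WT IgG, and was called higher over input (log2 1.37) and lower over IgG (-1.09). The call over IgG was lost without WT IgG replicate 2 (-0.99).

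SMG9 was at 29.4, 26.4 and 23.5 CPM in WT IP and at 65.8 and 48.8 CPM in WT IgG, lower over IgG by a log2 of -1.13, which was lost without WT IgG replicate 1 (-0.90). Over input SMG9 did not pass (log2 0.29). SMG5 was at 90.6, 82.1 and 89.0 CPM in WT IP and at 114 and 129 CPM in WT IgG, with log2 values of 0.72 over input and -0.50 over IgG. SMG1 was at 50.3, 58.8 and 62.1 CPM in WT IP and at 45.3 CPM in each WT IgG library, with log2 values of 0.93 over input and 0.31 over IgG. The values of SMG5 and SMG1 stayed under a fold of 2 over either control, and SMG1 reached a log2 of 1.02 over input without WT IP replicate 1.

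SMG8 was the member with the lowest recovery over input, at 9.09, 9.10 and 8.42 CPM in WT IP and 9.70 and 8.64 CPM in WT IgG. Its log2 value over input was -1.003 ± 0.12 (SE, edgeR adjusted p = 5.96e-08), at the fold limit, and the call was lost without WT input replicate 1 (-0.97), without WT IP replicate 3 (-0.96) and under several other settings. Over IgG it was -0.07 ± 0.16 (SE) with overlapping libraries.

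The control IgG recovered most members more than input did. In WT IgG over WT input 7 of 9 members were higher, against 24.4% of all genes, and 0 were lower, against 36.6% of all genes. At an unadjusted p under 0.05 with no fold limit 1 member, SMG8, was lower (edgeR). With the fold limit kept DESeq2 also called 0 lower, where SMG8 missed the fold limit and not the p threshold. SMG8 was at -0.94, and passed the fold limit without WT IgG replicate 1 (-1.03). UPF3B (log2 2.98), SMG6 (2.46) and UPF1 (2.25) had the highest IgG recovery.

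**Figure D3:**
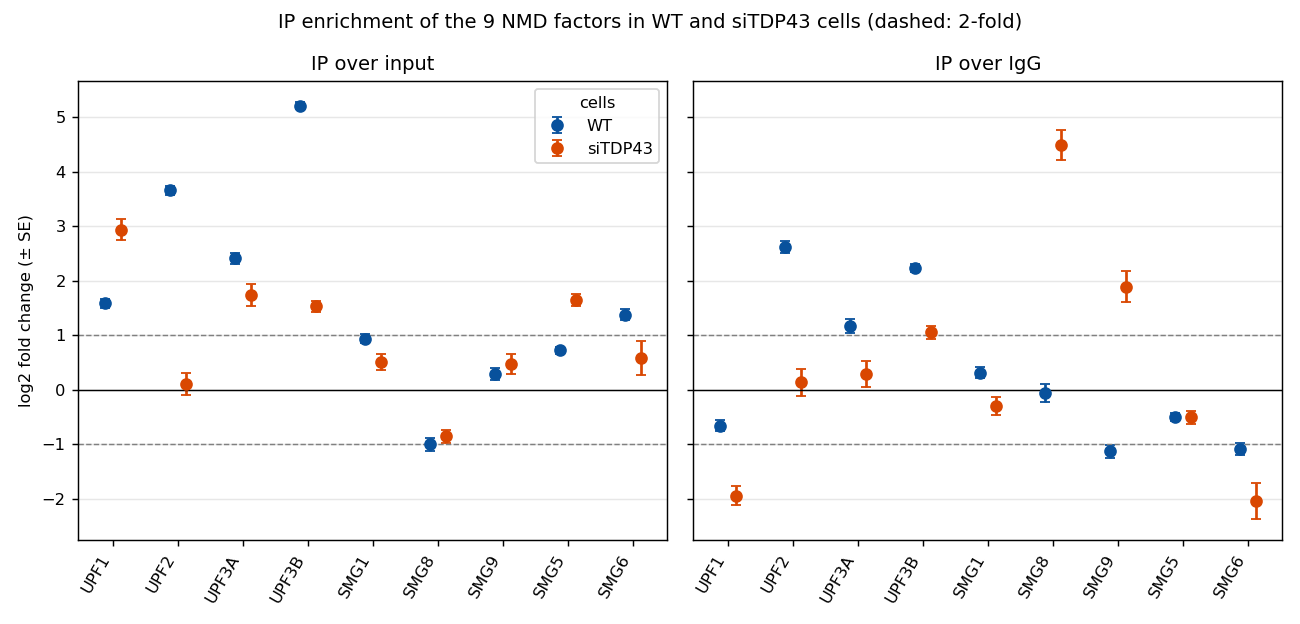
Log2 fold change (± SE) of IP over input and of IP over IgG for each NMD factor in WT and siTDP43 cells, with dashed lines at a fold of 2. UPF3B lies at 5.21 over input in WT and at 1.53 in siTDP43, UPF2 lies at 3.65 and 0.10, and SMG8 lies at 4.49 over IgG in siTDP43.

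In siTDP43 cells UPF3B was the sole member that passed over both controls, which 10.3% of all genes tested did. Over input UPF1, UPF3A, UPF3B and SMG5, 4 of 9, were higher, against 26.8% of all genes. In the other direction 0 members were lower, against 25.4% of all genes, with 1, SMG8, at an unadjusted p under 0.05 and no fold limit (edgeR). With the fold limit kept DESeq2 also called 0 lower, where SMG8 missed the fold limit and not the p threshold. Over IgG UPF3B, SMG8 and SMG9 were higher and UPF1 and SMG6 lower, 3 and 2 of 9, against 34.0% and 15.0% of all genes. The siTDP43 IgG libraries were the shallowest, so low members rest on few counts there.

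UPF3B was at 95.3, 86.2 and 102 CPM in siTDP43 IP and at 43.0, 40.5 and 46.6 CPM in siTDP43 IgG. The groups did not overlap, and its log2 enrichment was 1.53 ± 0.10 (SE) over input and 1.05 ± 0.12 (SE) over IgG (edgeR adjusted p = 8.29e-12 and 1.12e-07). Without siTDP43 IP replicate 3 the value over IgG was 0.98, a fold under 2, and no member was then ac4C(+) in siTDP43 cells. By CPM per kb UPF3B ranked 1966 among the 13711 genes with a count in siTDP43 IP.

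UPF2 was at 14.0, 11.5 and 9.72 CPM in siTDP43 IP and at 10.3, 12.1 and 8.54 CPM in siTDP43 IgG. All 3 siTDP43 groups of UPF2 lay within 8.54 and 14.0 CPM, and its log2 values were 0.10 ± 0.20 (SE) over input and 0.13 ± 0.25 (SE) over IgG, neither of which passed (edgeR adjusted p = 0.646 and 0.651). UPF3A was at 20.7, 18.0 and 17.9 CPM in siTDP43 IP and at 10.3, 20.2 and 14.2 CPM in siTDP43 IgG. It was higher over input (log2 1.74) and overlapped IgG (log2 0.28 ± 0.24 SE, edgeR adjusted p = 0.299).

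UPF1 was at 21.5, 20.1 and 17.2 CPM in siTDP43 IP and at 89.6, 67.6 and 59.1 CPM in siTDP43 IgG, against 2.46 to 3.26 CPM in input. IgG was the highest group, with a log2 of 4.88 ± 0.19 (SE) over input, and IP over IgG was -1.95 ± 0.17 (SE, edgeR adjusted p = 2.44e-09). SMG6 was at 5.42, 3.24 and 6.23 CPM in siTDP43 IP and at 15.8, 16.2 and 26.3 CPM in siTDP43 IgG, with a log2 of -2.05 ± 0.33 (SE) for IP over IgG.

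SMG8 was at 37.7, 36.7 and 32.1 CPM in siTDP43 IP and at 0.734, 2.43 and 1.42 CPM in siTDP43 IgG, where its counts were 2, 6 and 4. Those counts sum to 12, with an exact Poisson interval (95%) of 6.20 to 21.0 for counts taken as independent. In siTDP43 IgG 94.2 to 95.9% of the counts of 1 to 20 were even, so mates of a read pair may have been counted one by one, and 6 pairs would have an interval of 2.20 to 13.1. IP was 22.4-fold above IgG (log2 4.49 ± 0.27 SE, edgeR adjusted p = 1.02e-11), while over input SMG8 was at -0.86, short of a fold of 2. The value over IgG came with IgG far below input (log2 -5.35 ± 0.25 SE), and not with IP above input.

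SMG9 was also higher in IP than in IgG, at 25.7, 21.5 and 16.7 CPM in siTDP43 IP and at 7.34, 5.67 and 3.56 CPM in siTDP43 IgG. Its counts in siTDP43 IgG were 20, 14 and 10. Unlike SMG8, SMG9 had a higher mean in siTDP43 IP than in siTDP43 input, with overlapping libraries. IP over IgG was 1.89 ± 0.28 (SE) on the log2 scale and IP over input 0.46 ± 0.19 (SE), short of a fold of 2. SMG5 was at 112, 100.5 and 102 CPM in siTDP43 IP and at 136, 168 and 123 CPM in siTDP43 IgG, higher over input (log2 1.65) and at -0.51 over IgG. SMG1 was at 23.2, 21.8 and 24.0 CPM in siTDP43 IP and at 25.7, 29.1 and 26.3 CPM in siTDP43 IgG, and passed over neither control (log2 0.50 and -0.31).

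In siTDP43 IgG over siTDP43 input UPF1, UPF3A, SMG5 and SMG6 were higher and SMG8 and SMG9 lower, 4 and 2 of 9, against 24.7% and 41.0% of all genes. UPF3A was not called there under total count scaling (log2 0.91).

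The difference between the genotypes was tested as an interaction in a fit of all 17 libraries, which can differ slightly from the difference of the separate fits. For IP over input, 2 members had a higher enrichment in siTDP43 and 5 a lower one, against 31.5% and 36.3% of all genes. For IP over IgG 2 were higher and 6 lower, against 34.9% and 25.9%. The 2 sets share the IP libraries. UPF2, UPF3A, UPF3B, SMG1 and SMG6 were lower in siTDP43 against each control, and no member was higher against each.

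UPF3B lost the most over input, with a log2 difference of -3.83 ± 0.10 (SE, edgeR adjusted p = 2.74e-28), and lost 1.13 ± 0.13 (SE) over IgG (-1.13, edgeR adjusted p = 5.53e-10). UPF2 had -3.68 ± 0.17 (SE) over input and -2.41 ± 0.27 (SE) over IgG (edgeR adjusted p = 2.47e-20 and 7.22e-10), the greatest loss over IgG among the members. Every siTDP43 IP library of both genes lay below every WT IP and every WT IgG library.

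UPF3A, SMG1 and SMG6 had smaller differences, of -0.81, -0.58 and -0.94 over input and of -0.83, -0.57 and -0.91 over IgG. Leaving out siTDP43 IgG replicate 2 ended the call of UPF3A over IgG (-0.56, edgeR adjusted p = 0.0805), and leaving out siTDP43 IgG replicate 3 ended that of SMG6 (-0.62, edgeR adjusted p = 0.0915).

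For UPF1 the direction depended on the control, with 1.21 ± 0.20 (SE) over input and -1.23 ± 0.20 (SE) over IgG (edgeR adjusted p = 2.54e-06 and 1.27e-06). The siTDP43 libraries of UPF1 lay below the WT libraries in input and IP, and overlapped them in IgG. SMG5 had 0.78 ± 0.13 (SE) over input and 0.05 ± 0.15 (SE) over IgG, the latter with a p that missed the threshold (edgeR adjusted p = 0.930) and a sign that turned with DESeq2 size factors (-0.18).

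SMG8 and SMG9 had no detectable difference over input, at -0.003 ± 0.19 and 0.04 ± 0.21 (SE, edgeR adjusted p = 0.9998 and 0.907), each with a sign that changed between settings. Over IgG SMG8 had 4.61 ± 0.34 and SMG9 3.08 ± 0.31 (SE, edgeR adjusted p = 1.81e-14 and 4.82e-11), beside IgG levels of 8.64 to 9.70 CPM in WT against 0.734 to 2.43 CPM in siTDP43 for SMG8, and of 48.8 to 65.8 CPM against 3.56 to 7.34 CPM for SMG9.

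The other lists are given beside the members, with no test of a difference between lists, and the members had medians of -0.58 over input and -0.83 over IgG. Among all genes 31.5% were higher and 36.3% lower over input, and 34.9% and 25.9% over IgG. Over IgG, 9 of 14 decay enzymes and 11 of 14 transcripts known to rise when NMD is blocked had a higher enrichment in siTDP43, with medians of 0.86 and 1.02 against 0.24 for all genes. Of the 15 other NMD factors 9 were higher and 4 lower (median 0.43), and of 6 exon junction complex genes 3 were higher and 1 lower (0.18). Over input, 11 of 14 transcripts known to rise when NMD is blocked were higher and 3 lower (median 1.31, against -0.19 for all genes), while the decay enzymes, with 3 higher and 8 lower (median -0.48), were mostly lower, as the members were. The other NMD factors had 6 higher and 6 lower (median -0.02) and the exon junction complex genes 3 higher and 2 lower (median 0.58).

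The share of UPF3B in the counts of the 9 members describes the same libraries on a scale that needs no library total. WT libraries gave it 80.0 to 81.1% of the members' counts after IP, 49.8 to 51.6% after IgG and 22.9 to 25.2% before any pull-down. The siTDP43 libraries gave it 26.8 to 31.1% after IP, 11.2 to 15.1% after IgG and 17.3 to 18.5% before. Of the unscaled totals, the 9 members together took 2829 to 3159 CPM in WT IP, against 247 to 261 in WT input and 291 to 306 in siTDP43 IP.

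**Figure D4:**
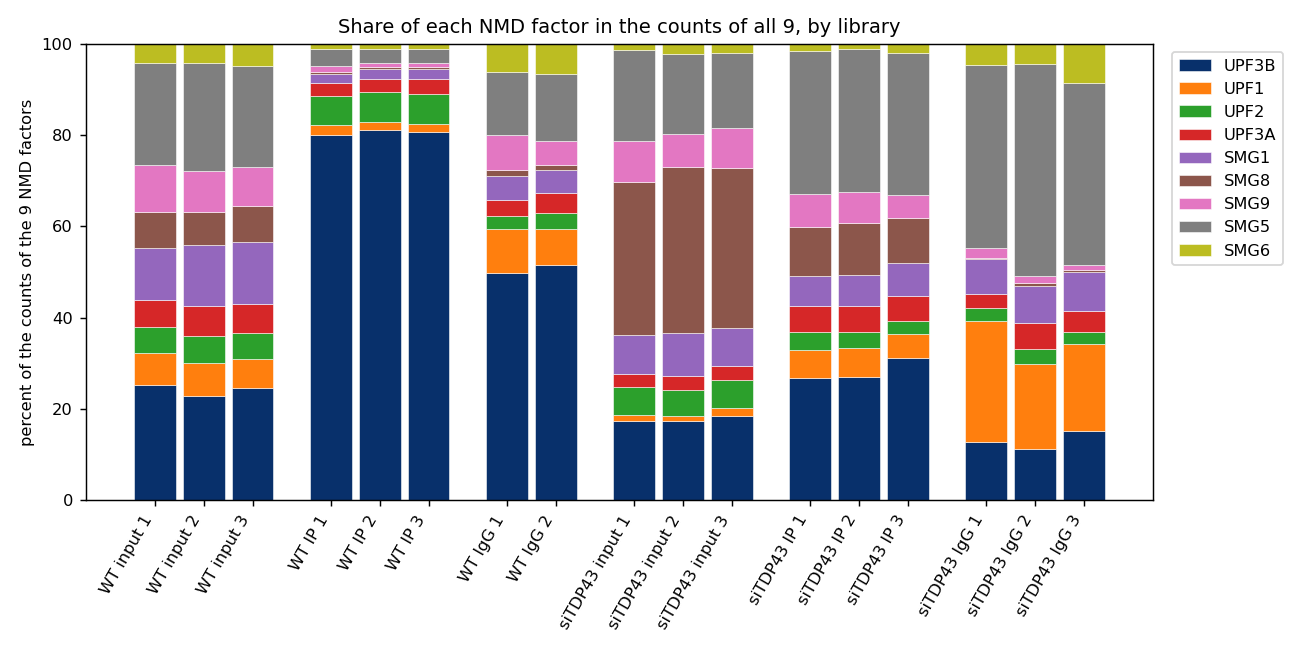
Percent of the counts of all 9 NMD factors held by each factor, as stacked bars for each of the 17 libraries. UPF3B holds 80.0 to 81.1% in the WT IP libraries and 26.8 to 31.1% in the siTDP43 IP libraries.

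Across the 6 groups the members fell into different orders of mean CPM. UPF2, UPF3A, UPF3B and SMG1 were highest in WT IP and next in WT IgG, with no overlap between these groups or with the group that followed. UPF1, SMG6 and SMG9 were highest in WT IgG, where UPF1 overlapped siTDP43 IgG. SMG5 was highest in siTDP43 IgG, which overlapped WT IgG, and SMG8 was highest in siTDP43 input, without overlap. The lowest group was siTDP43 input for UPF1, UPF3A, UPF3B, SMG1, SMG5 and SMG6, where SMG6 overlapped siTDP43 IP, and siTDP43 IgG for UPF2, SMG8 and SMG9, where UPF2 overlapped siTDP43 IP. Between these ends, neighbouring groups overlapped for UPF2 (siTDP43 input and IP), UPF3A (siTDP43 IP with siTDP43 IgG, and siTDP43 IgG with WT input), SMG1 (WT input and siTDP43 IgG), SMG6 (WT IP and siTDP43 IgG), SMG8 (WT IgG and WT IP) and SMG9 (WT IP, WT input, siTDP43 IP and siTDP43 input in turn). All other neighbours were separate.

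For each member the gene with the most similar pattern was named by Pearson's r of log2(CPM + 1) over the 17 libraries, among 10141 genes with a mean of at least 100 counts. The libraries form 6 groups of differing depth, so r mainly describes the group means. UPF3B was closest to NES, the intermediate filament gene nestin (r = 0.992), to ZC3H13, of the m6A writer complex (0.992), and to SEMA6C, a semaphorin gene (0.990). UPF2 was closest to SPINK5 (0.993), UPF3A to TBL1X (0.985), SMG1 to HUWE1 (0.990), UPF1 to PRR5 (0.986), SMG5 to C11orf83 (0.981), SMG8 to VPS8 (0.978), SMG9 to KIAA1274 (0.963) and SMG6 to CKMT1B (0.959). Among the members UPF2 and UPF3B had the highest r (0.949) and UPF1 and SMG8 the lowest (-0.88).

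The members also differed in base composition and length. The GC content of exons was 42.0% in UPF3B, 42.2% in UPF2 and 43.1% in SMG1, against 60.5% in UPF1, 59.5% in SMG9 and 57.6% in SMG5, around a median of 49.4% over 13775 genes. UPF3A (48.4%), SMG8 (47.2%) and SMG6 (55.8%) lay between. SMG1 has 16065 exonic bases, longer than 99.3% of those genes, and SMG9 with 2353 is the shortest member. The members with the highest enrichment over IgG in WT, UPF2 and UPF3B, were thus of low GC content, as was SMG1, which passed over neither control, a feature whose part in the recovery was not tested.

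Transcripts annotated as NMD targets exist for 4 of the 9 members in GENCODE, UPF1, SMG1, SMG8 and SMG9, against 38.8% of 20149 coding genes. Counts per gene sum over such transcripts and the coding ones. No exon of a member overlapped another gene row of the table.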

How the data were processed

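Poly(A) RNA of HEK293T cells was measured in 17 libraries, grouped by sample title and genotype. The authors prepared libraries with Smart-seq2, trimmed reads with Trim Galore 0.6.7, aligned them to hg19 with STAR 2.7.10a and deposited raw counts of uniquely aligned reads per gene, made with featureCounts 2.0.2. Annotation release, strand setting and handling of read pairs are not given in the sources used here, and there were no molecular identifiers. No spike-in entered the scaling, and every enrichment is relative to its library.

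Counts were fitted over the whole table in R 4.3.3 with edgeR 4.0.16 (TMM, filterByExpr with a minimum count of 10, two-sided quasi-likelihood F test), with Benjamini-Hochberg adjustment over all genes tested. The fits held the 6 input libraries, the 8 WT, the 9 siTDP43 or all 17 (interactions). Enrichment was called above a fold of 2 at an adjusted p under 0.05, and inputs and interactions at that p alone. All 9 members passed the filter in every fit. CPM values were scaled by TMM over all 17 libraries, and divided by exon length for CPM per kb. The authors' table also holds exon positions and lengths, which gave exon sequence from GRCh37, where 24 of the table's 47 chromosome names were found and all ends fitted. Transcript classes came from GENCODE v44 lifted to GRCh37 and pseudogene names from RefSeq.

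Named were the members, TARDBP, the most similar gene of each member (for UPF3B the 3 most similar) and up to 4 genes of each list, the highest and lowest called values among genes with a mean of at least 100 counts, with ATF4 and DDIT3 added after their values were seen. Some results are not reported here. The members and lists were chosen with earlier results of these data known. Replicates were no duplicates (chi-square per degree of freedom 3.26 to 9.43). The fit was run on simulated data with few changed genes, balanced in direction. Such data do not test the scaling where a large share of genes differs, as here. Alternatives were the Wald test of DESeq2 1.42.0, edgeR with DESeq2 size factors or with total counts as the scale, a looser and a stricter filter (none, or a mean of 50 counts), 1 fit of all libraries, the replicate block, halved counts, a fold over IgG above 5, IgG as the only control, and leaving out each library.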

Additional observations from a re-analysis of the deposited data

Results flagged for a closer look

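Each result here differed between siTDP43 and WT cells by the interaction test (edgeR, adjusted p under 0.05), 7 of 9 members for IP over input and 8 of 9 for IP over IgG. Over all genes 31.5% were higher and 36.3% lower over input, and 34.9% and 25.9% over IgG, so that a called gene was common in these tests. Values are log2 differences, siTDP43 minus WT. Over input the core factors had 1.21 (UPF1), -3.68 (UPF2), -0.81 (UPF3A) and -3.83 (UPF3B), the kinase SMG1 had -0.58, and the decay effectors had 0.78 (SMG5) and -0.94 (SMG6). Over IgG the core factors had -1.23 (UPF1), -2.41 (UPF2), -0.83 (UPF3A) and -1.13 (UPF3B). The kinase complex had -0.57 (SMG1), 4.61 (SMG8) and 3.08 (SMG9) over IgG, and SMG6 had -0.91. UPF1 had opposite signs against the 2 controls, and SMG8 and SMG9 differed only over IgG among these tests.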

How the results depend on the processing

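Of 630 values of single members under other settings, 606 kept their direction and side of the threshold, and of 819 values with 1 library left out, 788 did. Residuals of same-numbered libraries correlated at -0.043 to 0.103, with 1 of 40 pairs over 0.1, so the numbers were not taken as pairs. The replicate block changed no call of a member (ac4C(+) members numbered 3 in WT and 1 in siTDP43). Members lower in WT IP over input numbered 0 in place of 1 (SMG8) under the DESeq2 Wald test, DESeq2 size factors, total count scaling, a minimum mean of 50 counts and halved counts, and 0 to 1 with a library left out. Members lower in WT IP over IgG numbered 1 (without SMG6) under total count scaling and 1 to 2 with a library left out, and members lower in WT IgG over input 0 to 1. Members lower in siTDP43 IP over input numbered 1 (SMG8) under total count scaling and in the fit of all 17 libraries. With a fold over IgG above 5, ac4C(+) members numbered 1 in WT (UPF2) and 0 in siTDP43, and with IgG as the only control 3 in siTDP43 (UPF3B, SMG8, SMG9), and 0 to 1 with a library left out.

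Signs turned only for values that were not called. SMG8 for WT IP over IgG was 0.062 under total count scaling and -0.14 to 0.018 with a library left out. UPF2 for siTDP43 IP over input was -0.24 under total count scaling, -0.037 in the fit of all 17 libraries and -0.036 to 0.22 with a library left out, for IP over IgG -0.0045 to 0.26, and for IgG over input 0.10 under a minimum mean of 50 counts and -0.17 to 0.085. UPF3B for siTDP43 IgG over input was -0.069 under total count scaling. The interaction over input was 0.012 for SMG8 under that minimum and -0.051 to 0.059 with a library left out, and for SMG9 -0.028 (DESeq2 Wald test), -0.022 (DESeq2 size factors), -0.26 (total count scaling) and -0.13 to 0.18. The interaction over IgG for SMG5 was -0.18 under both DESeq2 settings, -0.0082 under the minimum mean of 50 counts and -0.048 to 0.18. The cause was not tested. Without a WT IgG library the lone other was assumed to vary like the other groups. Total count scaling moved the median of all genes from -0.09 to -0.43 in siTDP43 IP over input and from -0.58 to -1.13 in siTDP43 IgG over input, and the share of called genes that were higher from 51.3 to 39.0% and from 37.6 to 26.9%. Depth limits SMG8 in siTDP43 IgG most, with 12 counts over 3 libraries.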
